A study of Mus musculus with 12 samples.

Results

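Gonadal white adipose tissue (gWAT) from Cx43-MKO mice fed a high-fat diet (HFD) was compared with gWAT from WT mice on the same diet, gene by gene across the transcriptome. The comparison holds 6 of the 12 libraries of the series, 3 named KO-HFD (1, 2 and 3) and 3 named WT-HFD (1, 2 and 4), and the other 6 are KO-NCD and WT-NCD libraries from mice on normal chow diet (NCD). All mice were C57BL/6 males by their labels, started the diet at 6 weeks of age and stayed on it for 8 weeks. KO-HFD mice carried floxed Gja1 alleles together with Csf1r-CreER, a tamoxifen-dependent Cre recombinase under the promoter of the macrophage growth factor receptor gene, and WT-HFD mice carried the floxed alleles without CreER. Tamoxifen was given for 5 days in weeks 1 and 5 of the diet according to the deposited protocol, which names no genotype. The methods of the study give it to both genotypes, whereas the treatment labels list it for Cx43-MKO mice alone. The sources also differ on timing, since the methods describe 5 consecutive days of dosing with experiments started after the last dose. Whether the deletion came before or during the diet is thus not settled. The name of the Csf1r-CreER line points to an FVB origin, unlike that of the floxed mice, so differences of strain background between the genotypes cannot be told apart from the deletion. The labels do not say which library came from which animal, and p-values measure the spread between these libraries.

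Gja1 encodes connexin 43 (Cx43), a gap junction subunit whose hemichannels can also release ATP from cells. Extracellular ATP acts on P2X and P2Y receptors of macrophages, where P2X7 is a known trigger of the NLRP3 inflammasome and of interleukin-1β maturation. In obese fat, macrophages gather around dying adipocytes, take up lipid and expand their lysosomes, while adipocytes make fatty acids from glucose under the control of SREBP1c, ChREBP and PPARγ. The question of the comparison was what the loss of Cx43 in Csf1r-expressing cells does to the tissue on HFD.

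Total counts were 54047377 to 64295449 in KO-HFD and 49575113 to 66360046 in WT-HFD, and the median gene had an SD between libraries of 0.216 in KO-HFD and 0.23 in WT-HFD on the log2 scale. Values per gene are counts scaled to library size (CPM) after TMM normalisation, and a gene was called when its Benjamini-Hochberg adjusted p in edgeR's quasi-likelihood test was under 0.05. Gja1 (chr10:56377300-56390419, mm10) had 67.2, 96.8 and 65.7 CPM in KO-HFD 1, 2 and 3, against 68.8, 65.8 and 68.1 CPM in WT-HFD 1, 2 and 4, and its log2 fold change (KO-HFD over WT-HFD) was 0.18 ± 0.33 (SE, adjusted p = 0.74). The groups overlapped. Since many cells of fat express Gja1 and Cre acts only in Csf1r-expressing cells, the level in whole tissue does not check the deletion. The study checked it by qPCR in isolated macrophages. In whole gWAT it also reported a genotype effect on Gja1 by qPCR and on Cx43 protein by immunoblot, whereas Gja1 was not called here.

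Summed marker genes showed that the libraries also differed in cell type markers. The 8 macrophage markers took 0.139%, 0.117% and 0.271% of all counts in KO-HFD 1, 2 and 3, against 0.433%, 0.318% and 0.382% in WT-HFD 1, 2 and 4, without overlap, and no marker of this list was at 0. The 8 adipocyte markers took 2.15% to 2.43% in KO-HFD, against 1.5% to 1.94% in WT-HFD, which checks the labelled tissue. Neutrophil markers were at 0.00149% to 0.00209% in KO-HFD, against 0.00244%, 0.02% and 0.0541% in WT-HFD 1, 2 and 4, so WT-HFD 2 and 4 stood apart from WT-HFD 1. Liver markers, 11 genes of secreted hepatocyte proteins, took 0.0312%, 0.194% and 0.0436% in KO-HFD 1, 2 and 3, against at most 0.00626% in WT-HFD. In CPM without TMM, the highest of them in KO-HFD 1 was Serpina1b (121.7, against 95.59 for the albumin gene Alb). Alb was the highest in KO-HFD 2 (1107, against 139.2 for Serpina1b) and in KO-HFD 3 (157.8, against 136.2). Endothelial markers at 0.111% to 0.151% in KO-HFD and 0.109% to 0.125% in WT-HFD overlapped. In bulk tissue, fewer cells of a type and less RNA per cell cannot be told apart, and this holds for each gene group below.

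**Figure D1:**
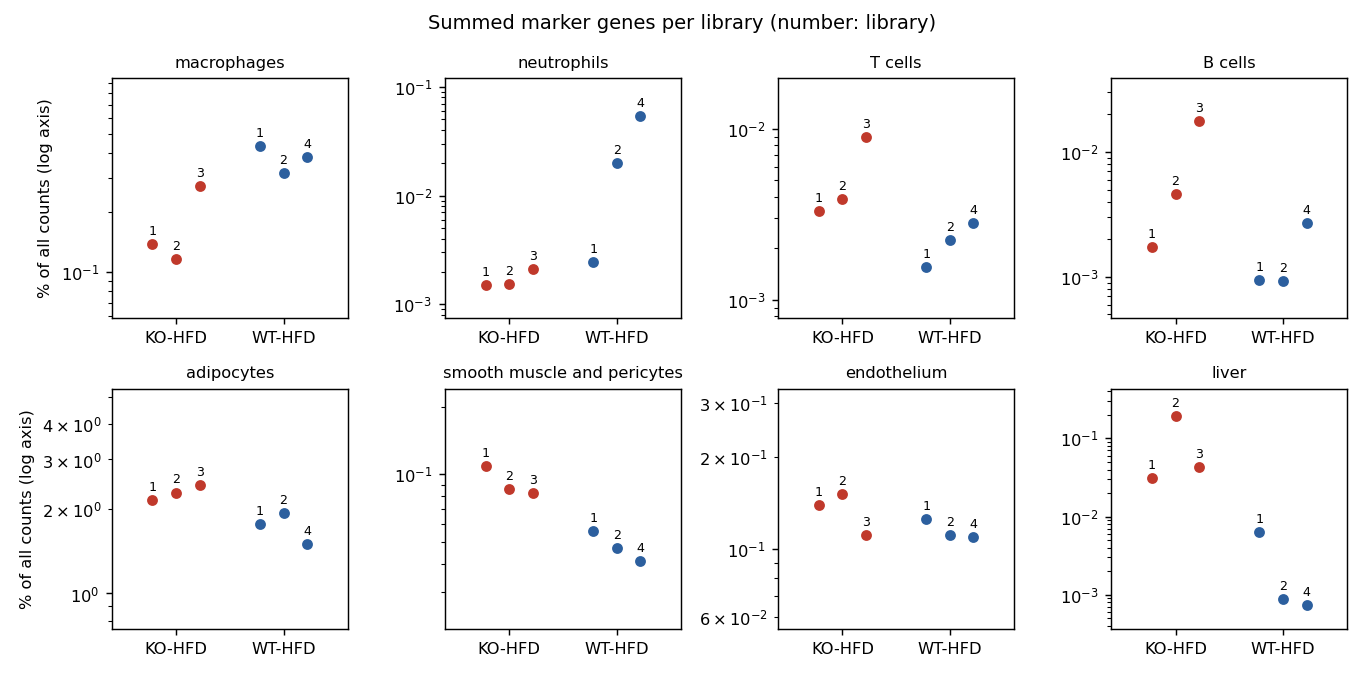
Share of all counts taken by summed marker genes of 8 cell types or organs (y axis, %, log scale) in each KO-HFD library (left in each panel) and WT-HFD library (right), with the library number beside each point. The 3 KO-HFD libraries lie at 0.117% to 0.271% for macrophage markers, below the 0.318% to 0.433% of WT-HFD, and neutrophil markers are high in WT-HFD 2 and 4.

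Of 16352 tested genes, 1307 were higher in KO-HFD than in WT-HFD (7.99% of those tested) and 1263 were lower (7.72%), 2570 in all (15.7%). Most calls were of moderate size. The median fold was 1.77 among the higher genes and 1.93 among the lower genes, 501 higher and 589 lower genes passed 2-fold, and 90 higher and 60 lower genes passed 10-fold. The 3 and 3 libraries did not overlap for 1294 of the higher and 1224 of the lower genes, against 19.3% (higher) and 17.0% (lower) of all tested genes. The calls were made on the same values, so this largely follows from them and adds no support. The median log2 fold change of all tested genes was 0.02. At the thresholds of the study, a fold over 1.5 and an unadjusted p under 0.05, 1828 genes were higher (11.2%) and 1551 lower (9.49%). The number of calls leaned on single libraries. Without WT-HFD 4, 471 genes were higher and 513 lower, without KO-HFD 2, 522 and 415, and without KO-HFD 3, 737 and 795. Without KO-HFD 1 they were 963 and 822, and without WT-HFD 2, 813 and 992. Without WT-HFD 1 the counts rose to 1483 and 1300. In all, 409 of the higher and 370 of the lower genes were called with each of the 6 libraries left out in turn.

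Many macrophage genes were lower in KO-HFD. Of 17 pan-macrophage markers, 9 were lower in KO-HFD and 0 higher, with a median log2 fold change of -1.64, against 7.72% lower and a median of 0.02 among all tested genes. Adgre1, the F4/80 gene of macrophages (chr17:57358581-57483529), had 93.7, 60 and 98.2 CPM in KO-HFD, against 493, 244 and 272 CPM in WT-HFD. No KO-HFD library reached the lowest WT-HFD library, and the log2 fold change was -2.0 ± 0.32 (SE, adjusted p = 0.0044). Cd68, a lysosomal glycoprotein of phagocytes, had 95.1, 77.1 and 116 CPM in KO-HFD, against 549.8, 276 and 326 CPM in WT-HFD (log2 fold change -2.0, adjusted p = 0.0084). WT-HFD 1 was the highest library for both genes, and the groups stayed apart. Cd84, a leukocyte adhesion receptor (-2.13), Laptm5, a lysosomal membrane protein of blood cells (-1.56), and Itgam, the CD11b integrin chain (-2.18), were lower as well and, like Adgre1 and Cd68, were called with each library left out. Without KO-HFD 2, 5 of the 17 markers were called, and without KO-HFD 3, 14.

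Csf1r itself (chr18:61105572-61131139), whose promoter drives the CreER, was chosen for description after its values were seen. It had 187, 179 and 291 CPM in KO-HFD, against 499.8, 274 and 325 CPM in WT-HFD. KO-HFD 3 lay above WT-HFD 2, so the groups overlapped, and the difference did not pass (-0.74 ± 0.24, SE, adjusted p = 0.062). It passed without KO-HFD 3 (-1.02, adjusted p = 0.0308) and without WT-HFD 2 (-0.91, adjusted p = 0.0444).

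Genes of lipid-associated macrophages, the lipid-laden type known from obese fat, were among those with large falls. Of 15 such genes 12 were lower and 0 higher, with a median log2 fold change of -1.88, and 8 were called with each library left out. Spp1, which encodes the secreted matrix protein osteopontin (chr5:104435111-104441053), had 6.16, 5.18 and 4.13 CPM in KO-HFD, against 67.3, 807 and 1367 CPM in WT-HFD. The KO-HFD libraries were within a narrow range while WT-HFD 1 was far below WT-HFD 2 and 4, and the log2 fold change of -7.18 ± 1.01 (SE, adjusted p = 0.003) was the largest among the lower genes named by the rule. Gpnmb, a lysosomal membrane glycoprotein (chr6:49036518-49058182), had 19.3, 41.9 and 30.3 CPM in KO-HFD, against 1568, 249 and 273 CPM in WT-HFD. Here WT-HFD 1 was the highest library, unlike in Spp1, and the change was -4.51 ± 0.75 (SE, adjusted p = 0.005). Mmp12, the macrophage elastase, had 20.9, 19 and 14.6 CPM in KO-HFD, against 909, 90.3 and 88.3 CPM in WT-HFD (-4.32 ± 0.85, SE, adjusted p = 0.01). Atp6v0d2, a V-ATPase subunit of macrophages and osteoclasts, was likewise highest in WT-HFD 1, with 4.66, 9 and 8.67 CPM in KO-HFD, against 334, 38.3 and 52.4 CPM in WT-HFD (-4.25 ± 0.79, SE, adjusted p = 0.0084). WT-HFD 1 thus led for Gpnmb, Mmp12 and Atp6v0d2 and was lowest in its group for Spp1. Without it the log2 fold changes were -3.10 for Gpnmb, -2.30 for Mmp12 and -2.61 for Atp6v0d2, and without WT-HFD 4 that of Spp1 was -6.4, all still called.

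Plin2, which coats lipid droplets of macrophages and many other cells (chr4:86626910-86670217), was steadier, with 375, 293 and 295 CPM in KO-HFD, against 1428, 917 and 1206 CPM in WT-HFD (-1.88 ± 0.18, SE, adjusted p = 0.0011). Cd63, a lysosomal tetraspanin, fell by 1.24 on the log2 scale (adjusted p = 0.0035). Itgax, the CD11c integrin chain, had 19.3, 18 and 18.4 CPM in KO-HFD, against 199, 41.8 and 50.3 CPM in WT-HFD (-2.39 ± 0.50, SE, adjusted p = 0.012). Its groups did not overlap, the call was lost without KO-HFD 2 (adjusted p = 0.0521), and the log2 fold change was -1.31 without WT-HFD 1. Among 15 resident and anti-inflammatory macrophage genes 5 were lower and 1 higher (median -0.58). Folr2, the folate receptor of resident macrophages, fell by 1.41 and Mrc1, the mannose receptor CD206, by 1.28 on the log2 scale (adjusted p = 0.0036 and 0.0051), both with each library left out. The gene that was higher was Timd4, a phosphatidylserine receptor of resident macrophages, chosen after its values were seen, with 14.6, 8.18 and 4.99 CPM in KO-HFD, against 2.41, 4.14 and 2.07 CPM in WT-HFD (1.68 ± 0.47, SE, adjusted p = 0.038). The Timd4 groups did not overlap, but the call was lost without KO-HFD 1, KO-HFD 2, WT-HFD 1 or WT-HFD 4 (adjusted p up to 0.138). The other lower genes were the scavenger receptor Cd163 (-0.97), Il10, given with the cytokines, and the lectin Clec10a, chosen after its values were seen (-0.88), and the list had 3 lower genes without KO-HFD 1 or KO-HFD 3 and 2 without KO-HFD 2 or WT-HFD 4. The macrophage marker share of 0.117% to 0.271% in KO-HFD, against 0.318% to 0.433% in WT-HFD, moved with the lower genes of these lists and not with Timd4, and its part in the result was not tested.

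**Figure D2:**
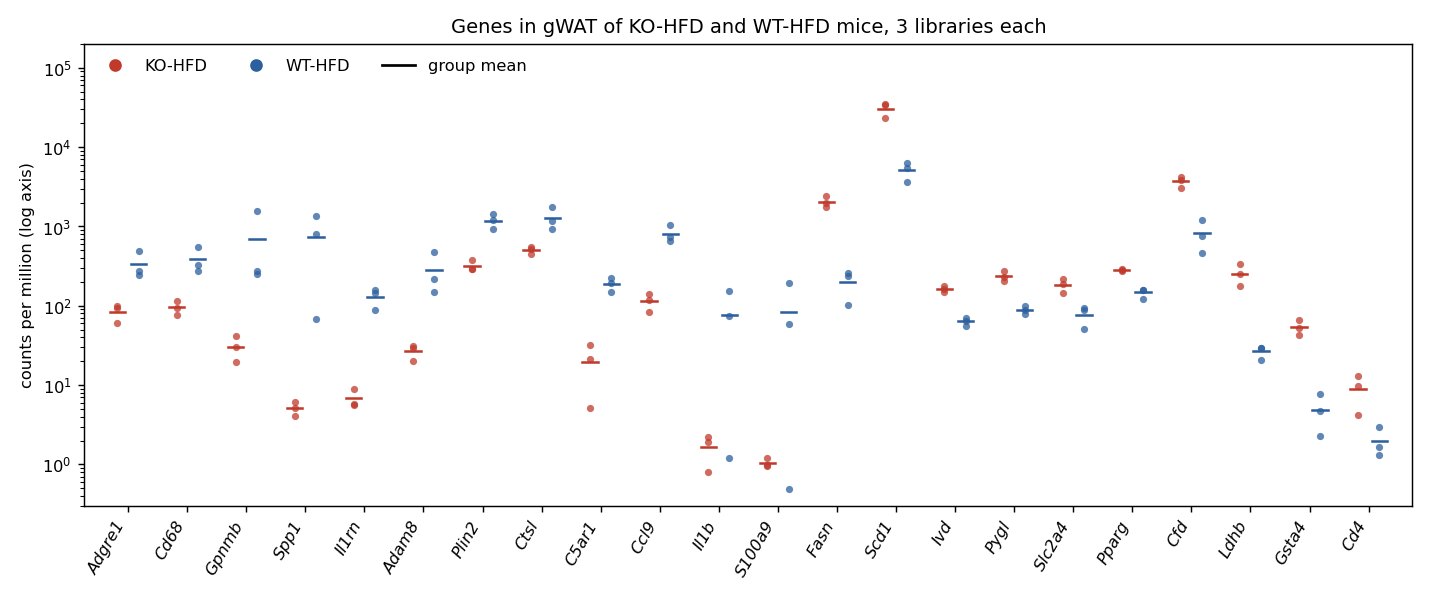
Expression of 22 genes (y axis, CPM, log scale) in the 3 KO-HFD (left of each pair) and 3 WT-HFD libraries, 1 point per library, with the group mean as a bar. Spp1 lies at 4.13 to 6.16 CPM in KO-HFD, against 67.3 to 1367 CPM in WT-HFD, Il1b and S100a9 are low in WT-HFD 1, and Fasn, Scd1, Ivd, Pygl, Ldhb and Gsta4 are higher in every KO-HFD library.

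Promoter sequences of genes that moved in the 2 directions were read from RefSeq (GRCm38.p6, the build of mm10) as windows of 300 bases, 250 before and 50 after the start of the gene, and 12783 of the 16352 tested genes had one. A motif with the letters GAGGAAGT, a common form of the binding site of the macrophage factor PU.1, stood on either strand in 7.36% of the lower genes, 3.29% of the higher genes and 3.83% of all genes with a window. A gene counted when any of its windows held the motif, and the 12783 genes had 16127 windows. The E-box CACGTG, which is bound by TFEB and MITF and also forms half-sites of the ChREBP element, stood in 12.5% of the lower genes, 8.17% of the higher genes and 10.9% of all. The other motifs searched were TCACNCCAC (sterol element, 1.89% of lower, 1.59% of higher and 1.42% of all), an NF-κB element (0.895%, 0.199% and 0.501% in that order), TTGCGCAA (C/EBP, 0.298%, 0.299% and 0.321%) and a PPAR element, named without its letters like the NF-κB element (0%, 0.0996% and 0.0548%). A match is a stretch of letters and says nothing of binding, and both strands were searched. Stretches before the start of 5 genes described here are printed 5′ to 3′ on the strand of the gene, with the match in capitals, 2 for PU.1 in macrophage genes that fell and 3 for the E-box in lysosomal genes that fell (Gla, Ctsd) and in the ChREBP gene, which rose (Mlxipl). The capitals of Mmp12 are the reverse complement of the motif, and the Spp1 and Gla stretches also hold TCACNCCAC and GAGGAAGT on one of the strands, left in lower case.
Spp1, chr5:104434938-104435065, plus strand: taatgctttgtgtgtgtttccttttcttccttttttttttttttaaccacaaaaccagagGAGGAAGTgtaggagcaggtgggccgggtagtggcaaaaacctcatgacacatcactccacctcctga
Mmp12, chr9:7344249-7344376, plus strand: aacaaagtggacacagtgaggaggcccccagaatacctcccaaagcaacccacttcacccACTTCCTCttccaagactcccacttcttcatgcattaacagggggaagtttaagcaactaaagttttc
Gla, chrX:134601134-134601255, minus strand: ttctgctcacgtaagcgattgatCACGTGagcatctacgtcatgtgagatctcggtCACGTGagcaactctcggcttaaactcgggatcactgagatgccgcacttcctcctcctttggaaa
Ctsd, chr7:142387860-142388077, minus strand: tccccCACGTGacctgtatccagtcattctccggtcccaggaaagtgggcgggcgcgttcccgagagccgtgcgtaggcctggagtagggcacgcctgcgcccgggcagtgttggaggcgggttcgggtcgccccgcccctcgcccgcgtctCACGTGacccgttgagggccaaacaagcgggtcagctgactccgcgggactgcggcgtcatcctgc
Mlxipl, chr5:135089732-135089857, plus strand: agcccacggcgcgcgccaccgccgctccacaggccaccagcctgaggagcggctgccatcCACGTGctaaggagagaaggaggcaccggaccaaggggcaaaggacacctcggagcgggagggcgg

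Lysosomal genes were lower in the same libraries. Of 24 lysosomal hydrolases and V-ATPase subunits 16 were lower and 0 higher (median -0.96), and 10 of them were called with each library left out. Gla, α-galactosidase A, which removes galactose from glycolipids, had 17.9, 15.1 and 17.7 CPM in KO-HFD, against 69.8, 43 and 59.9 CPM in WT-HFD (-1.77 ± 0.23, SE, adjusted p = 0.0022). The cathepsin proteases Ctsb and Ctsl fell by 1.19 and 1.34 on the log2 scale, and Hexa, a β-hexosaminidase subunit, by 1.28 (adjusted p = 0.0044, 0.0049 and 0.0059). Ctsd, cathepsin D, was chosen for its promoter after its values were seen, with 1400.4, 1070.0 and 1599 CPM in KO-HFD, against 4759, 2515 and 2712 CPM in WT-HFD (-1.3 ± 0.24, SE, adjusted p = 0.0086). For each of these 5 genes the highest KO-HFD library lay below the lowest WT-HFD library. Without KO-HFD 2, 10 of the 24 genes were called.

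Many receptors that let macrophages sense antibodies and microbes fell. Of 14 Fc receptors and ITAM adaptors 10 were lower and 0 higher (median -1.63). Syk, the kinase that relays ITAM signals, had 59, 52.8 and 73.2 CPM in KO-HFD, against 272, 156 and 209 CPM in WT-HFD (-1.78 ± 0.28, SE, adjusted p = 0.004). Fcgr3, a low-affinity Fcγ receptor, fell by 1.63, the adaptor Lat2 by 2.80 and the kinase Btk by 1.31 on the log2 scale. These 4 calls held with each library left out, but the count of the list went to 5 without KO-HFD 1 or WT-HFD 4, 4 without KO-HFD 2, and 6 without KO-HFD 3 or WT-HFD 2. Of 16 Toll-like receptors and adaptors 9 were lower and 0 higher (median -0.96). Tlr8, an endosomal RNA sensor, had 23.3, 16.2 and 19.6 CPM in KO-HFD, against 136, 75.6 and 89.8 CPM in WT-HFD (-2.35 ± 0.29, SE, adjusted p = 0.0018). Tlr13, which senses bacterial ribosomal RNA, fell by 2.37, Tlr4, the lipopolysaccharide receptor, by 1.07 and the signalling kinase Irak4 by 1.11 on the log2 scale. The count of this list was 5 without KO-HFD 1 or WT-HFD 4 and 4 without KO-HFD 2.

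A few complement genes were called in each direction. Of 18 tested, 3 were lower (16.7%) and 2 higher (11.1%), against 7.72% and 7.99% of all tested genes (list median -0.19). C5ar1, the C5a receptor of myeloid cells (chr7:16246743-16259540), had 32.4, 21.2 and 5.1 CPM in KO-HFD, against 192, 149 and 223 CPM in WT-HFD (-3.26 ± 0.52, SE, adjusted p = 0.0044), and C3ar1, the C3a receptor, fell by 2.14 on the log2 scale. Both lay below every WT-HFD library in every KO-HFD library, as did the remaining lower gene, Cfp, the myeloid factor properdin, chosen after its values were seen (-1.49). Without KO-HFD 3, 6 complement genes were lower, the added ones being the C1q chain genes C1qa (-1.19), C1qb (-1.61) and C1qc (-1.3), chosen after their values were seen and not called with all libraries (-0.65, -1.10 and -0.81). Cfd, the adipocyte protease adipsin that activates the alternative pathway (chr10:79890853-79892655), had 3079, 4215 and 3855 CPM in KO-HFD, against 462, 1220.0 and 769.5 CPM in WT-HFD (2.19 ± 0.33, SE, adjusted p = 0.0037). C7, a component of the membrane attack complex, had 82.6, 141 and 51.9 CPM in KO-HFD, against 17.8, 20.2 and 5.66 CPM in WT-HFD (2.65 ± 0.53, SE, adjusted p = 0.01). The receptors were thus lower and these 2 secreted components higher. Among 12 leukocyte integrins 5 were lower and 0 higher (median -0.81), among them Itgav and Itga5, chains of vitronectin and fibronectin receptors, at -1.01 and -0.80, beside Itgam and Itgax given above. The remaining gene was Itgb2, the shared β chain of leukocyte integrins, chosen after its values were seen (-1.71), and without KO-HFD 2, 3 integrin genes were called.

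MHC class II genes and interferon-stimulated genes gave no call. Of 10 MHC class II genes 0 were called in either direction (median -0.43), with an adjusted p of 0.14 for the lowest member, H2-DMb1, and of 22 interferon-stimulated genes 0 were called (median 0.13), with 0.08 for the lowest, Gbp3, and 1 call without WT-HFD 1. At 3 libraries per group this does not show that they were equal. Of 25 cell cycle genes 6 were lower and 0 higher (median -0.74), among them Mcm2, a replicative helicase subunit (-0.74, adjusted p = 0.021), and Top2a, the topoisomerase of dividing cells (-1.26, adjusted p = 0.039, and -0.66 without WT-HFD 1). None of these calls held with each library left out, and the count was 2 without KO-HFD 1 or WT-HFD 1, 0 without KO-HFD 2, 1 without WT-HFD 4 and 11 without WT-HFD 2.

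Some chemokines and cytokines fell as well, but with a wider spread inside WT-HFD. Of 22 chemokines 8 were lower and 0 higher (median -0.98). Ccl9, a chemoattractant made by macrophages (chr11:83572917-83578636), had 142, 83.8 and 119.7 CPM in KO-HFD, against 732, 649 and 1058 CPM in WT-HFD (-2.82 ± 0.39, SE, adjusted p = 0.0027). Its neighbour Ccl6 had 208, 122 and 241 CPM in KO-HFD, against 789.8, 1072 and 1595 CPM in WT-HFD (-2.60 ± 0.43, SE, adjusted p = 0.005). Ccl6 and Ccl9 were high in all 3 WT-HFD libraries, and these 2 chemokine calls held with each library left out. Ccl2, the monocyte attractant MCP-1, had 43.9, 18.1 and 22.6 CPM in KO-HFD, against 55, 111 and 184 CPM in WT-HFD (-2.05 ± 0.54, SE, adjusted p = 0.03). KO-HFD 1 came close to WT-HFD 1, and the call was lost without KO-HFD 2, KO-HFD 3, WT-HFD 2 or WT-HFD 4 (adjusted p up to 0.118). Cxcl2, a neutrophil attractant, had 0.406, 0.309 and 2.42 CPM in KO-HFD, against 4.13, 58.5 and 219 CPM in WT-HFD (-6.50 ± 1.37, SE, adjusted p = 0.013). It was low in WT-HFD 1 next to WT-HFD 2 and 4, and the call was lost without KO-HFD 2 (adjusted p = 0.0552). Its log2 fold change was -8.04 without KO-HFD 3 and -4.91 without WT-HFD 4. The count of the list was 4 without KO-HFD 1 or KO-HFD 3, 2 without KO-HFD 2, 3 without WT-HFD 4 and 12 without WT-HFD 1. In a fit on the 6 HFD libraries alone, Ccl6 and Ccl9 were the lower chemokines, and Cxcl9, an interferon-induced chemokine chosen after its values were seen, was called higher (0.65 with all libraries in the fit, adjusted p = 0.53). Of 14 chemokine receptors 5 were lower and 0 higher (median -0.47), among them Cxcr2 of neutrophils (-6.54), the monocyte receptor Ccr1 (-2.48, and -1.73 without WT-HFD 4), Ccr2 of monocytes, chosen after its values were seen (-1.76), and the scavenging receptor Ackr1 (-1.35), with 2 called without KO-HFD 1 or KO-HFD 3 and 0 without KO-HFD 2 or WT-HFD 4.

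In the list of 20 cytokines and interleukin-1 family genes 7 were lower and 0 higher (median -0.67). Il1rn, which encodes the interleukin-1 receptor antagonist (chr2:24336860-24351491), had 9.02, 5.66 and 5.71 CPM in KO-HFD, against 158, 89.5 and 144 CPM in WT-HFD (-4.26 ± 0.41, SE, adjusted p = 0.0011). All 3 WT-HFD libraries were high, and the call held with each library left out. Il1b, the interleukin-1β gene (chr2:129364569-129371164), had 1.91, 0.806 and 2.24 CPM in KO-HFD, against 1.21, 74.4 and 154 CPM in WT-HFD (-5.53 ± 1.3, SE, adjusted p = 0.019). WT-HFD 1 lay within the KO-HFD range, and the call was lost without KO-HFD 1, KO-HFD 2, KO-HFD 3 or WT-HFD 4 (adjusted p up to 0.0768, with a log2 fold change of -4.5 without WT-HFD 4). Il6, an inflammatory cytokine, had 1.22, 0.274 and 0.736 CPM in KO-HFD, against 0.47, 3.24 and 5.88 CPM in WT-HFD and was not called (-2.10 ± 1.02, SE, adjusted p = 0.18). Il10, an anti-inflammatory cytokine, had 1.41, 0.686 and 1.54 CPM in KO-HFD, against 2.72, 3.71 and 6.25 CPM in WT-HFD (-1.80 ± 0.49, SE, adjusted p = 0.034). Its groups did not overlap, and of the 6 omissions only that of WT-HFD 1 kept the call (adjusted p up to 0.135). The cytokine list had 2 lower genes without KO-HFD 1 or KO-HFD 3 and 1 without KO-HFD 2 or WT-HFD 4.

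Of 16 inflammasome and necroptosis genes 6 were lower and 0 higher (median -0.68), Il1b among them. Nlrp3, the sensor that assembles the NLRP3 inflammasome (chr11:59541569-59566955), had 4.25, 2.14 and 2.5 CPM in KO-HFD, against 4, 15.5 and 30.9 CPM in WT-HFD (-2.50 ± 0.68, SE, adjusted p = 0.033). WT-HFD 1 lay below KO-HFD 1, so the groups overlapped, and the call was lost with every omission but that of WT-HFD 1 (adjusted p up to 0.139, with a log2 fold change of -1.72 without WT-HFD 4). Ripk3, a kinase of necroptosis, had 14, 10.1 and 14.4 CPM in KO-HFD, against 22, 30.9 and 39.5 CPM in WT-HFD (-1.26 ± 0.36, SE, adjusted p = 0.041), with no overlap and the same lost omissions (adjusted p up to 0.147). Pycard, the inflammasome adaptor ASC, had 13.4, 9.48 and 16.6 CPM in KO-HFD, against 24, 32.6 and 44.5 CPM in WT-HFD, and missed the threshold (-1.36 ± 0.44, SE, adjusted p = 0.059). Casp1, the protease that cuts pro-interleukin-1β, had 29.9, 21.5 and 37.9 CPM in KO-HFD, against 52.3, 34.4 and 36.6 CPM in WT-HFD, with overlap and no call (-0.47 ± 0.26, SE, adjusted p = 0.24). The count of the list was 1 without KO-HFD 1, 0 without KO-HFD 2, 2 without KO-HFD 3, 3 without WT-HFD 2 and 0 without WT-HFD 4.

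Neutrophil genes divided the WT-HFD libraries in the same way. Of 7 tested neutrophil markers 5 were lower and 0 higher (median -4.91), and none of the calls held with each library left out or in a fit on the 6 HFD libraries alone, which gave 0. They were S100a9, S100a8, Cxcr2, Csf3r and Retnlg, the last chosen after its values were seen and at 0 counts in all KO-HFD libraries. S100a9, a calprotectin subunit of neutrophils, had 0.977, 0.96 and 1.22 CPM in KO-HFD, against 0.49, 58.8 and 192 CPM in WT-HFD (-6.31 ± 1.57, SE, adjusted p = 0.024). WT-HFD 1 lay below all KO-HFD libraries. Csf3r, the G-CSF receptor of neutrophils and other myeloid cells, had 11.4, 11.4 and 14.3 CPM in KO-HFD, against 18.6, 76.8 and 169 CPM in WT-HFD (-2.83 ± 0.71, SE, adjusted p = 0.025). Both calls were lost without KO-HFD 1, KO-HFD 2, KO-HFD 3 or WT-HFD 4 (adjusted p up to 0.0877 for S100a9 and 0.103 for Csf3r), the log2 fold changes without WT-HFD 4 were -4.82 for S100a9, -1.95 for Csf3r and -3.0 for S100a8, against -4.29 for S100a8 with all libraries, and the list had 0 calls without KO-HFD 1, KO-HFD 2 or WT-HFD 4 and 1 without KO-HFD 3. The neutrophil marker share of 0.02% and 0.0541% in WT-HFD 2 and 4, against 0.00244% in WT-HFD 1, moved with Il1b, Cxcl2 and Nlrp3, and its part in their differences was not tested.

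A few ATP-gated and nucleotide receptors were lower. Of 14 P2X and P2Y receptors 4 were lower and 0 higher (median -0.35), and the other 10 were not called. P2rx7, the ATP-gated channel upstream of NLRP3 (chr5:122643927-122692336), had 29.2, 28.5 and 34.6 CPM in KO-HFD, against 54.4, 33.4 and 52.7 CPM in WT-HFD. KO-HFD 3 lay above WT-HFD 2, the log2 fold change was -0.60 ± 0.18 (SE, adjusted p = 0.048), and only the omission of WT-HFD 2 kept the call (adjusted p up to 0.163). P2rx4, another ATP-gated channel next to P2rx7 in the genome, had 73.2, 78.3 and 82.5 CPM in KO-HFD, against 158, 114 and 141 CPM in WT-HFD (-0.82 ± 0.20, SE, adjusted p = 0.022), without overlap. Its call was lost without KO-HFD 1, KO-HFD 2, WT-HFD 1 or WT-HFD 4 (adjusted p up to 0.0723). P2ry6, the UDP receptor, fell by 1.39 on the log2 scale (adjusted p = 0.0075) with each library left out, and P2ry14, the UDP-glucose receptor, by 1.12 (adjusted p = 0.017, and up to 0.0695 without KO-HFD 2 or WT-HFD 4). Without KO-HFD 1 or WT-HFD 1 the list had 2 lower genes, and without KO-HFD 2 or WT-HFD 4, 1.

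Among 13 ectonucleotidases and adenosine receptors 3 were higher (23.1%) and 2 lower (15.4%), against 7.99% and 7.72% of all tested genes (list median -0.01). Entpd1, the CD39 enzyme that degrades ATP, fell by 0.92 (adjusted p = 0.0089) and Adora1, the A1 adenosine receptor that restrains lipolysis in adipocytes, rose by 0.99 (adjusted p = 0.012) on the log2 scale, each with every library left out. Enpp2, the lysophospholipase autotaxin (1.31), and Entpd2, chosen after its values were seen (0.63), were the other higher genes and Enpp1, which hydrolyses ATP to AMP, the other lower gene (-1.20, adjusted p = 0.013, and 0.0532 without KO-HFD 2). Without KO-HFD 2 this list had 1 higher and 1 lower gene, and without KO-HFD 3 or WT-HFD 4, 1 higher. Of 13 tested connexins and pannexins 1 was called, higher, which is 7.69% against 7.99% of all tested genes. It was Gjc1, which encodes connexin 45. It had 35.2, 33.4 and 32.6 CPM in KO-HFD, against 25.5, 23.7 and 17.5 CPM in WT-HFD (0.60 ± 0.17, SE, adjusted p = 0.039), and only the omission of WT-HFD 1 kept the call (adjusted p up to 0.134). Panx1, the ATP-releasing channel pannexin 1, had 8.33, 7.01 and 8.82 CPM in KO-HFD, against 10.1, 11 and 12.9 CPM in WT-HFD and was not called (-0.49 ± 0.17, SE, adjusted p = 0.078).

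Some T cell genes went the other way. Of 10 T cell markers 3 were higher and 0 lower (median 1.33). On NCD, 3 of the 10 were higher in KO-NCD than in WT-NCD (median 1.375), and the interaction was called for 0, so the difference was not particular to HFD. Cd4 had 4.19, 9.74 and 13.1 CPM in KO-HFD, against 1.31, 1.68 and 2.98 CPM in WT-HFD (2.18 ± 0.43, SE, adjusted p = 0.01), without overlap and with each library left out. Cd3e, a chain of the T cell receptor complex, rose by 1.53 (adjusted p = 0.036), but only without KO-HFD 1 was the call kept (adjusted p up to 0.117), Cd3g of the same complex rose by 1.61 (adjusted p = 0.04, and up to 0.147 without KO-HFD 3 or any WT-HFD library, with a log2 fold change of 0.93 without KO-HFD 3), and 1 of the 10 markers was called without KO-HFD 3 or any WT-HFD library. The summed T cell markers took 0.00332% to 0.00895% of counts in KO-HFD, against 0.00156% to 0.00282% in WT-HFD. Of 7 B cell markers 0 were called (median 2.60). Together they took 0.00175%, 0.00461% and 0.0177% of counts in KO-HFD 1, 2 and 3, against 0.000933% to 0.00269% in WT-HFD. Without KO-HFD 1, 6 of the 7 were higher, and without WT-HFD 4, 1. Markers of NK cells and mast cells gave 0 calls each. Of 4 tested eosinophil markers 1 was lower and 0 higher (median -0.79). It was Siglecf, which some macrophages also carry, with 0.21, 0.103 and 0.0359 CPM in KO-HFD, against 1.68, 1.31 and 1.45 CPM in WT-HFD (-3.63 ± 0.71, SE, adjusted p = 0.01, and -4.37 without KO-HFD 1). Prg2, the eosinophil major basic protein, had 1.2, 1.03 and 1.6 CPM in KO-HFD, against 0.0817, 0.5 and 0 CPM in WT-HFD, and was not called (2.67 ± 1.12, SE, adjusted p = 0.13) but was called higher without WT-HFD 2.

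Most fatty acid synthesis enzymes were higher. Of 19 enzymes 13 were higher and 0 lower (median log2 fold change 1.25), against 7.99% higher and a median of 0.02 among all tested genes. Fasn, fatty acid synthase (chr11:120805958-120825166), had 1975, 1769 and 2424 CPM in KO-HFD, against 256, 236 and 102 CPM in WT-HFD (3.38 ± 0.44, SE, adjusted p = 0.0022). Scd1, the desaturase that makes oleate and palmitoleate (chr19:44394450-44407709), had 23136, 33708 and 34836 CPM in KO-HFD, against 5499, 6348 and 3652 CPM in WT-HFD (2.56 ± 0.29, SE, adjusted p = 0.0016). The KO-HFD libraries were far above every WT-HFD library for both, and WT-HFD 4 was the lowest. Scd2, another desaturase, rose by 1.65, and Elovl6, which lengthens palmitate to stearate, by 1.33 on the log2 scale, and these 4 enzymes were called with each library left out. Acss2, which makes acetyl-CoA from acetate, had 75.7, 55 and 65.9 CPM in KO-HFD, against 37.6, 41.3 and 25.2 CPM in WT-HFD (0.92 ± 0.21, SE, adjusted p = 0.019), lost without KO-HFD 1, KO-HFD 3 or WT-HFD 4 (adjusted p up to 0.0659). Scd3, another desaturase whose reads could be split with its paralogs, had 37.7, 56.7 and 28.9 CPM in KO-HFD, against 5.62, 0 and 0 CPM in WT-HFD, and its call (adjusted p = 0.041) was kept only without WT-HFD 1 (adjusted p up to 0.101). Without WT-HFD 4, 4 of the 19 enzymes were called, and without WT-HFD 2, 8.

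Some regulators of lipogenesis were higher alongside. Pparg, the master regulator of adipocytes (chr6:115360879-115490404), had 281, 276 and 292 CPM in KO-HFD, against 160.3, 158 and 123 CPM in WT-HFD (0.94 ± 0.12, SE, adjusted p = 0.0023). Mlxipl, which encodes ChREBP, the glucose-sensing factor (chr5:135089890-135139768), had 144, 222 and 167 CPM in KO-HFD, against 78.6, 88.5 and 59 CPM in WT-HFD (1.24 ± 0.22, SE, adjusted p = 0.0063). Both were separate between groups and called with each library left out. Srebf1, the SREBP1 gene, rose by 0.98 (adjusted p = 0.02), lost without KO-HFD 2, KO-HFD 3 or WT-HFD 4 (adjusted p up to 0.0806). These 3 were the higher genes of the 12 lipogenic factors, and 0 were lower (median 0.18). Among 14 adipocyte transcription factors 7 were higher and 0 lower (median 0.56), including Rxra, the partner of PPARγ (0.83), Klf15 (1.19) and Cebpa (0.70), and 4 were called without KO-HFD 1, KO-HFD 2 or WT-HFD 4.

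Triglyceride and lipid droplet genes were mixed. Of 16 triglyceride assembly enzymes 4 were higher and 1 lower (median 0.30). Gpat3, which adds the first acyl chain to glycerol phosphate, had 103, 127 and 109 CPM in KO-HFD, against 43.6, 60.3 and 43.8 CPM in WT-HFD (1.20 ± 0.23, SE, adjusted p = 0.0087), and Agpat2, which adds the second, rose by 1.56 (adjusted p = 0.016, and 0.0524 without KO-HFD 3). The others were Gpat4 (0.66) and Mogat1 (1.5), acyltransferases, and without KO-HFD 2, KO-HFD 3 or WT-HFD 4, 2 enzymes were higher. The lower gene was the phosphatase Lpin2, chosen after its values were seen (-0.63), which was not called without KO-HFD 1, KO-HFD 3, WT-HFD 1 or WT-HFD 4. Of 12 lipid droplet proteins 4 were higher and 2 lower (median 0.47). Plin1, the adipocyte coat protein, had 1102, 1321 and 1084 CPM in KO-HFD, against 697, 755 and 496 CPM in WT-HFD (0.85 ± 0.17, SE, adjusted p = 0.012). Plin2, given above, and Hilpda, an inhibitor of the lipase ATGL, went down. Hilpda had 10.2, 8.81 and 13.3 CPM in KO-HFD, against 27.2, 36.8 and 65 CPM in WT-HFD (-1.99 ± 0.30, SE, adjusted p = 0.0037). Plin4 (0.98), Cidea (1.69) and the seipin gene Bscl2, chosen after its values were seen (0.54), were the other higher genes, and without KO-HFD 1, KO-HFD 2, KO-HFD 3 or WT-HFD 4, 1 droplet protein was higher, and without WT-HFD 1, 2.

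Of 16 lipolysis genes 4 were higher and 1 lower (median 0.48). Npr3, the clearance receptor for natriuretic peptides, had 1659.8, 1542 and 1523 CPM in KO-HFD, against 927, 868 and 605 CPM in WT-HFD (0.98 ± 0.16, SE, adjusted p = 0.0047). Lipe, hormone-sensitive lipase, rose by 0.80 (adjusted p = 0.016), lost without KO-HFD 2, KO-HFD 3 or WT-HFD 4 (adjusted p up to 0.0597), and under these same omissions 2 lipolysis genes were higher. Besides these and Plin1, Mgll, monoglyceride lipase, chosen after its values were seen, was higher (0.82), and Hcar2, an antilipolytic receptor that macrophages also carry, was lower (-1.87), which was lost without any KO-HFD library or WT-HFD 4 (adjusted p up to 0.11, with a log2 fold change of -1.11 without WT-HFD 4). Of 12 fatty acid uptake genes 1 was higher, the acyl-CoA synthetase and transporter gene Slc27a4 (0.35), and 1 lower, Angptl4, an inhibitor of lipoprotein lipase, with 418, 319 and 345 CPM in KO-HFD, against 929.5, 878 and 1058 CPM in WT-HFD (-1.41 ± 0.27, SE, adjusted p = 0.0088). The groups of Npr3 and Angptl4 did not overlap. The uptake calls were 8.33% of the list in each direction, against 7.99% higher and 7.72% lower among all tested genes. The uptake list had 3 higher genes without WT-HFD 1, and 2 lower genes without KO-HFD 2 or WT-HFD 2.

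Catabolism of branched-chain amino acids was the list with the largest share of genes called higher. Of 22 genes 18 were higher and 0 lower (median 0.80), and 13 were called with each library left out. Ivd, isovaleryl-CoA dehydrogenase of leucine breakdown (chr2:118861959-118882909), had 151, 164 and 176 CPM in KO-HFD, against 70.5, 65.1 and 55.8 CPM in WT-HFD (1.36 ± 0.16, SE, adjusted p = 0.0016). Pccb, a propionyl-CoA carboxylase subunit, had 157, 147 and 182 CPM in KO-HFD, against 83.4, 72.4 and 61.4 CPM in WT-HFD (1.16 ± 0.15, SE, adjusted p = 0.0021). In both genes every KO-HFD library lay above the highest WT-HFD library. Acadsb, the dehydrogenase of the isoleucine branch, rose by 0.82 and Mccc1, a methylcrotonoyl-CoA carboxylase subunit, by 0.93 on the log2 scale.

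Mitochondrial genes followed with smaller changes. Of 23 genes of the TCA cycle and pyruvate entry 17 were higher and 1 lower (median 0.65). Suclg1, a succinyl-CoA ligase subunit, rose by 0.98, Idh3g, a subunit of NAD-dependent isocitrate dehydrogenase, by 0.65, and Pdhx, a pyruvate dehydrogenase component, by 0.67 on the log2 scale (adjusted p = 0.0052, 0.0059 and 0.0081). The lower gene was Pdk4, the kinase that shuts off pyruvate dehydrogenase (chr6:5483351-5496278), with 71.4, 53.7 and 33.3 CPM in KO-HFD, against 322, 149 and 213 CPM in WT-HFD (-2.11 ± 0.35, SE, adjusted p = 0.005). All 4 held with each library left out, while the higher genes of the list numbered 9 without KO-HFD 2, 11 without KO-HFD 3, 10 without WT-HFD 2 and 8 without WT-HFD 4. Of 25 oxidative phosphorylation subunits 14 were higher and 0 lower (median 0.57), and 22 did not overlap between the groups, against 19.3% of all tested genes. Ndufv1, a complex I subunit, had 129, 139 and 164 CPM in KO-HFD, against 86.8, 83.5 and 72.8 CPM in WT-HFD (0.83 ± 0.15, SE, adjusted p = 0.0067), and Cyc1 of complex III rose by 0.76 and Atp5b of the ATP synthase by 0.80. The count of this list was 6 without KO-HFD 2 or WT-HFD 2, 5 without KO-HFD 3 and 4 without WT-HFD 4. Of 21 fatty acid oxidation enzymes 5 were higher and 0 lower (median 0.22), and Acads, short-chain acyl-CoA dehydrogenase (0.80, adjusted p = 0.0088), was the 1 gene that remained called without KO-HFD 2, KO-HFD 3 or WT-HFD 4.

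Glycogen genes and a few glucose genes were higher too. Of 14 glycogen genes 8 were higher and 0 lower (median 0.83). Pygl, a glycogen phosphorylase (chr12:70190815-70227683), had 233, 206 and 275 CPM in KO-HFD, against 88.3, 98 and 79.2 CPM in WT-HFD (1.43 ± 0.17, SE, adjusted p = 0.0016). Pygb, a second phosphorylase, rose by 1.63, Gbe1, the branching enzyme, by 1.21 and Pgm1, phosphoglucomutase, by 0.89 on the log2 scale, all with each library left out. The list had 5 higher genes without KO-HFD 2 or WT-HFD 4. Slc2a4, the insulin-responsive transporter GLUT4 (chr11:69942286-69948216), had 146, 217 and 186 CPM in KO-HFD, against 93.2, 87.5 and 51 CPM in WT-HFD (1.25 ± 0.24, SE, adjusted p = 0.0096). Hk2, hexokinase 2, had 149, 208 and 142 CPM in KO-HFD, against 71.6, 71.4 and 73.2 CPM in WT-HFD (1.21 ± 0.24, SE, adjusted p = 0.01). The groups of both genes stood apart. However, of 17 insulin signalling and glucose uptake genes 3 were higher (17.65%) and 1 lower (5.88%) in all, against 7.99% and 7.72% of all tested genes (list median 0.09). The others were the kinase Akt2 (0.62, adjusted p = 0.015, and 0.0618 without KO-HFD 2) and the phosphatase Ptpn1 (-0.79, adjusted p = 0.033, kept only without WT-HFD 1 and up to 0.12 otherwise). Of 22 cholesterol synthesis genes 7 were higher and 0 lower (median 0.51), among them Fdft1, squalene synthase, at 0.87. Fdft1 overlaps Ctsb at their ends in the annotation, and the strand used in counting is not stated, so reads in the overlap could belong to either gene. The cholesterol list had 3 higher genes without KO-HFD 1, 4 without KO-HFD 2 and 2 without WT-HFD 4.

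**Figure D3:**
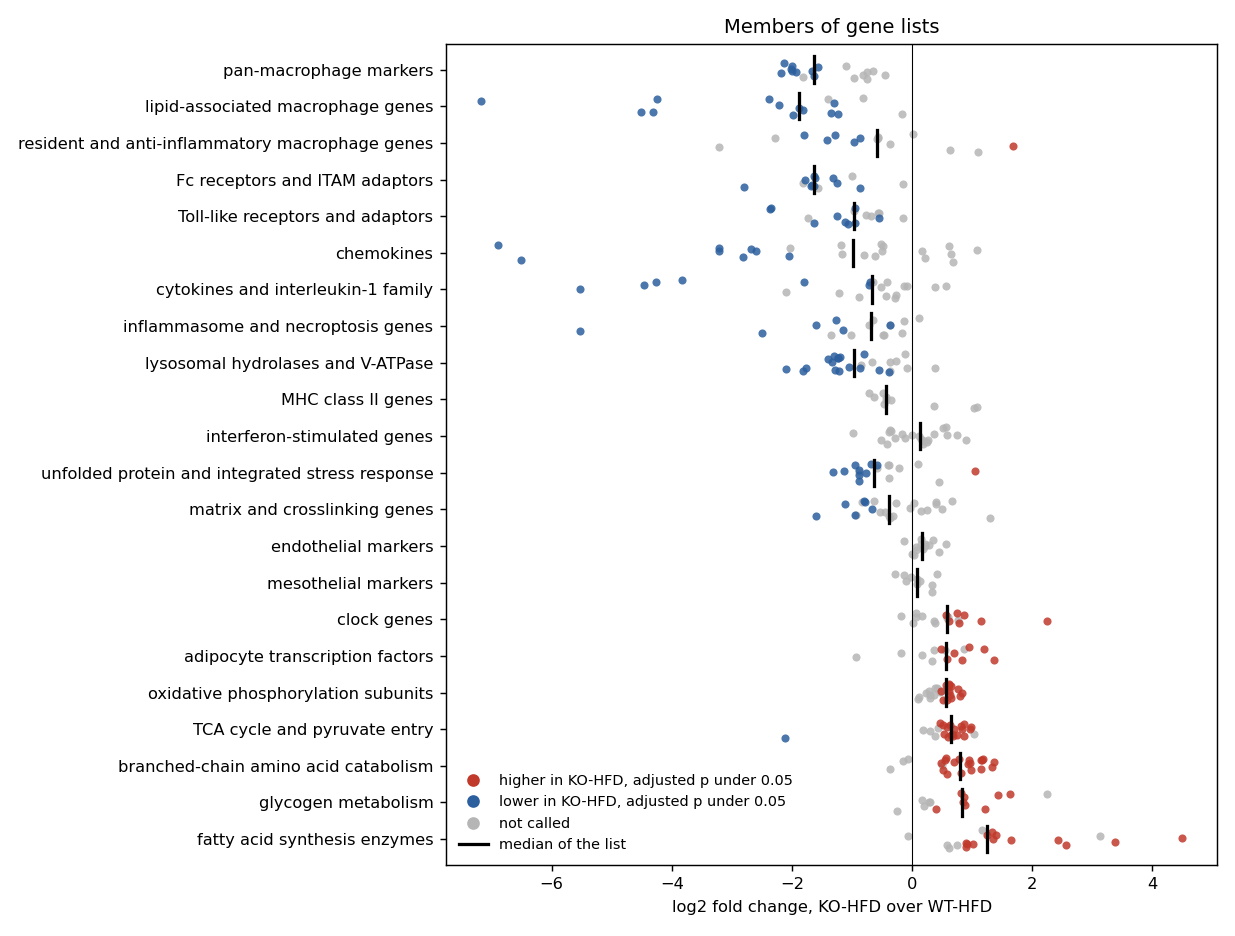
Log2 fold change (x axis, KO-HFD over WT-HFD) of every tested member of 22 gene lists, 1 point per gene, red where higher and blue where lower in KO-HFD at an adjusted p under 0.05, grey where not called, with the list median as a bar. Macrophage and lysosome lists have medians between -1.88 and -0.58, fatty acid synthesis 1.25, branched-chain amino acid catabolism 0.80, and endothelial and mesothelial markers no call.

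Adipokines split by gene. Of 14, 3 were higher (21.4%) and 2 lower (14.3%), against 7.99% and 7.72% of all tested genes (list median 0.32). Retn, resistin, had 701, 757 and 1069 CPM in KO-HFD, against 139, 312 and 200.04 CPM in WT-HFD (1.96 ± 0.35, SE, adjusted p = 0.0067), and Metrnl, an adipokine also made by macrophages, fell by 1.62 (adjusted p = 0.0099). Cfd and Angptl4, given above, and Rbp4, retinol binding protein 4, chosen after its values were seen (0.87), were the other called genes. Lep and Adipoq, chosen after their values were seen, were not called. Lep, leptin, had 2271, 1858 and 2057 CPM in KO-HFD, against 3126, 945 and 691 CPM in WT-HFD (0.38 ± 0.45, SE, adjusted p = 0.59), with WT-HFD 1 above and the other WT-HFD libraries below all KO-HFD libraries. Without WT-HFD 1, Lep was called higher (1.33, adjusted p = 0.0045). Adipoq, adiponectin, had 2418, 1658 and 2097 CPM in KO-HFD, against 1925, 1917 and 1330.2 CPM in WT-HFD (0.26 ± 0.23, SE, adjusted p = 0.47). The adipocyte marker share, 2.15% to 2.43% in KO-HFD against 1.5% to 1.94% in WT-HFD, moved with the lipogenic, mitochondrial and glycogen genes, and its part in the result was not tested.

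Of 17 clock genes 7 were higher and 0 lower (median 0.58). Cry2, a clock repressor, rose by 0.74 and Hlf, an output transcription factor, by 2.25 on the log2 scale, with each library left out. Hlf had 18.3, 40.1 and 24 CPM in KO-HFD, against 8.5, 6.96 and 1.88 CPM in WT-HFD. The 3 KO-HFD libraries were higher than all WT-HFD libraries. The count was 3 without KO-HFD 2 and 4 without KO-HFD 3 or WT-HFD 4, and the hour of tissue collection is not given in the labels.

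Matrix genes moved in both directions. Of 21 collagen chains 3 were higher (14.3%) and 1 lower (4.76%), against 7.99% and 7.72% of all tested genes (list median -0.05). The higher ones were Col18a1 (0.74), Col4a3 (2.94) and Col6a6 (2.45, and 3.58 without WT-HFD 1), which were not called without KO-HFD 1 or WT-HFD 4. Col12a1, a fibril-associated collagen, was the lower one, with 20.9, 11.2 and 12.6 CPM in KO-HFD, against 73.5, 49.9 and 79.6 CPM in WT-HFD (-2.18 ± 0.36, SE, adjusted p = 0.0048). No KO-HFD library came near the WT-HFD range. Of 24 matrix and crosslinking genes 6 were lower and 0 higher (median -0.38), and Plod2, a lysyl hydroxylase of collagen crosslinking (-1.12), Fbln2, fibulin 2 (-0.80), and Plod1 (-0.67) were those called without KO-HFD 2. Of 16 matrix metalloproteinases and inhibitors 6 were lower and 3 higher (median -0.01). Mmp19, a matrix metalloproteinase, had 87.7, 80.1 and 77.4 CPM in KO-HFD, against 170.0, 136 and 169 CPM in WT-HFD (-0.95 ± 0.10, SE, adjusted p = 0.0012). Mmp12, given above, Adam12 (-1.10), the collagenase Mmp13 (-1.90), and Mmp3 (-2.23) and Mmp9 (-2.41), chosen after their values were seen, were lower too. The higher ones were the inhibitor Timp4 (1.26) and the proteases Adamts5 (0.74) and Mmp15 (0.58), also chosen after their values were seen. Without KO-HFD 2 this list had 2 lower and 0 higher genes, without WT-HFD 4, 3 and 0, without KO-HFD 3, 3 and 2, and without KO-HFD 1 or WT-HFD 2, 0 higher. Progenitor, endothelial and mesothelial marker lists of 14, 14 and 10 genes had 0 calls, with the lowest adjusted p of each at 0.062, 0.12 and 0.68, and without WT-HFD 1, 2 progenitor markers were lower. Rgs5, a pericyte marker, was higher, with 436, 467 and 440.5 CPM in KO-HFD, against 254, 200.1 and 151 CPM in WT-HFD (1.15 ± 0.18, SE, adjusted p = 0.0042).

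Stress pathways moved unevenly. Of 18 genes of the unfolded protein and integrated stress response 9 were lower and 1 higher (median -0.64). Edem1, which sends misfolded glycoproteins to degradation, fell by 0.59 and Dnajb9, an endoplasmic reticulum chaperone, by 0.69 on the log2 scale, each with every library left out. The higher gene was Asns, asparagine synthetase, a target of ATF4, with 56.1, 69.3 and 68.1 CPM in KO-HFD, against 22.2, 37.9 and 34 CPM in WT-HFD (1.04 ± 0.18, SE, adjusted p = 0.0068). The lower genes numbered 2 without KO-HFD 2 or WT-HFD 4 and 3 without KO-HFD 3 or WT-HFD 2. Of 20 Nrf2 targets and glutathione genes 3 were higher (15%) and 5 lower (25%), against 7.99% and 7.72% of all tested genes (list median 0.07). Gsta4, a glutathione S-transferase that detoxifies the lipid peroxidation product hydroxynonenal (chr9:78191966-78209349), had 67, 42.6 and 52.7 CPM in KO-HFD, against 4.78, 7.67 and 2.27 CPM in WT-HFD (3.46 ± 0.40, SE, adjusted p = 0.0016), and Gsta3 and Gstm2, related transferases, rose by 2.64 and 0.77, Gstm2 being chosen after its values were seen. In contrast, Hmox1, haem oxygenase 1, had 62.1, 58.3 and 63.8 CPM in KO-HFD, against 146, 141 and 206 CPM in WT-HFD (-1.42 ± 0.20, SE, adjusted p = 0.003), and Sod3, extracellular superoxide dismutase, fell by 1.21. The other lower genes, chosen after their values were seen, were Slc7a11, the cystine transporter (-4.59, and -3.34 without WT-HFD 4), Gpx1, a glutathione peroxidase (-0.77), and Srxn1, sulfiredoxin (-0.46). Without KO-HFD 2 and WT-HFD 4 in turn, 2 and 3 genes of this list were lower, and without WT-HFD 1, 6 were higher.

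Further genes of large change had no list. Adam8, a metalloprotease of myeloid cells (chr7:139978932-139995207), had 29.6, 31.3 and 20.1 CPM in KO-HFD, against 478, 149 and 215 CPM in WT-HFD (-3.38 ± 0.38, SE, adjusted p = 0.0016, and -2.75 without WT-HFD 1). Slc37a2, a sugar-phosphate exchanger of macrophages, fell by 3.15 and Ubd, a ubiquitin-like protein, by 3.08 on the log2 scale. Ldhb, the lactate dehydrogenase form that turns lactate to pyruvate (chr6:142490249-142507957), had 176, 250.4 and 333 CPM in KO-HFD, against 29.6, 29.5 and 20.8 CPM in WT-HFD (3.25 ± 0.36, SE, adjusted p = 0.0013). For Adam8 and Ldhb the groups lay far apart, and all 4 genes were called with each library left out. Lars2, mitochondrial leucyl-tRNA synthetase, had 966, 36.9 and 32.4 CPM in KO-HFD, against 25.7, 23.4 and 21.5 CPM in WT-HFD (3.87 ± 1.09, SE, adjusted p = 0.038), so KO-HFD 1 set its size, and the call was lost without WT-HFD 1, WT-HFD 2 or WT-HFD 4 (adjusted p up to 0.129). Without KO-HFD 1 its log2 fold change was 0.56.

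Several high fold changes belonged to liver and seminal vesicle genes or to near-identical gene copies. Serpina1b, an α1-antitrypsin gene of the liver, had 118, 131 and 132 CPM in KO-HFD, against 4.41, 0.667 and 0.447 CPM in WT-HFD (6.14 ± 0.75, SE, adjusted p = 0.0017), and its near-identical neighbour Serpina1a rose by 4.25 (7.81 and 5.08 for the 2 genes without WT-HFD 1), so the split of reads between them is uncertain. All 11 liver markers were higher in every KO-HFD library than in every WT-HFD library, but 2 were called, and Alb, albumin, had 92.4, 1045 and 153 CPM in KO-HFD, against 33, 3.14 and 2.66 CPM in WT-HFD (adjusted p = 0.069). Serpina1b was even across KO-HFD while Alb was highest in KO-HFD 2, as was Serpina1a. In CPM without TMM, KO-NCD 1 had 61.5 for Serpina1b and 12.3 for Serpina1a. The same library had 3.03 for Alb and 0 for the liver markers Apoa1, Ttr and Fga. WT-HFD 1 had 32.4 for Alb, with 4.33 for Serpina1b and 5.19 for Serpina1a. KO-NCD 2 and 3 had 67.8 and 48.4 for Serpina1b, with 406 and 36.3 for Alb. The part of liver RNA in the Serpina1 values was not tested. Without WT-HFD 1, 5 liver markers were called, Alb among them. Eno1b, a near-identical copy of the enolase gene Eno1 (chr18:48045335-48048379), had 71.9, 62.6 and 85.1 CPM in KO-HFD, against 0.0817, 0.0556 and 0.0744 CPM in WT-HFD (adjusted p = 0.021, and up to 0.0833 without WT-HFD 2 or WT-HFD 4), and reads of Eno1 could be split between the copies. Svs2, Svs4 and Svs5, seminal vesicle secretory proteins, were at 0.752 to 4.59 CPM in KO-HFD and at 0 to 0.123 CPM in WT-HFD. Svs4 had 0 counts in all 3 WT-HFD libraries, which allows up to 3 counts in each. The call of Svs4 was lost without WT-HFD 4 (adjusted p = 0.0537) and that of Svs5 without KO-HFD 2, WT-HFD 2 or WT-HFD 4 (adjusted p up to 0.0697).

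Some genes outside the rule for named genes were chosen after their values were seen, for their small spread or their place beside the groups above. Mitf, a lysosomal and pigment cell transcription factor, had 16.1, 20.1 and 20.1 CPM in KO-HFD, against 46.7, 34.8 and 36.9 CPM in WT-HFD (-1.07 ± 0.13, SE, adjusted p = 0.0018). The groups did not overlap. Soat1, which esterifies cholesterol, and Nceh1, which hydrolyses cholesterol esters, fell by 2.39 and 2.47 on the log2 scale. Pnpla3, a lipid droplet protein induced by SREBP1c and ChREBP, had 567, 380.1 and 414 CPM in KO-HFD, against 87.1, 96.5 and 40.2 CPM in WT-HFD (2.60 ± 0.35, SE, adjusted p = 0.0023).

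With the 6 HFD libraries fitted alone, so that fewer libraries set the spread, 579 genes were higher and 734 lower, and many lists had fewer calls. Cell cycle genes and neutrophil markers had 0. Of the lower genes, the cytokine list had 2, the inflammasome list 3 and the unfolded protein response list 3. Of the higher genes, the TCA cycle list had 11, the cholesterol list 4, the adipocyte transcription factors 3, the clock list 2, the T cell, lipolysis and collagen lists 1 each, and the lipid droplet, metalloproteinase, connexin and fatty acid uptake lists 0. Fatty acid oxidation had 2 higher genes and 1 lower, Cpt1a, the carnitine palmitoyltransferase that admits fatty acids to mitochondria, chosen after its values were seen (-0.55 with all libraries in the fit, adjusted p = 0.089). Timd4, Lpin2, Hcar2 and Ptpn1 were not called in that fit.

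The same genotype comparison on NCD used 6 other libraries. There, 861 genes were higher in KO-NCD than in WT-NCD (5.27% of those tested) and 1293 lower (7.91%). WT-NCD libraries held seminal vesicle markers at 1.97% to 10.1% of counts, against at most 4.49e-05% in KO-NCD, and the part of this in the NCD comparison was not tested. Of the 1307 genes higher on HFD, 128 were also higher on NCD (9.79%, against 5.27% of all genes) and 168 were lower there. Of the 1263 genes lower on HFD, 62 were also lower on NCD (4.91%, against 7.91% of all genes) and 122 were higher there. The difference between diets was tested as an interaction of diet and genotype, which was called for 2893 genes (17.7%). The difference was more positive on HFD for 1491 genes (9.12%) and more negative for 1402 (8.57%), and the 2893 held 661 of the genes higher on HFD and 808 of the genes lower on HFD.

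Many macrophage genes differed in that test. Adgre1 had 125, 69.9 and 94.1 CPM in KO-NCD, against 52.7, 63 and 42 CPM in WT-NCD (log2 fold change 0.87, adjusted p = 0.084), and its interaction, the HFD minus the NCD difference, was -2.88 (adjusted p = 0.0037). Spp1 had 11.7, 3.17 and 4.86 CPM in KO-NCD, against 5.47, 3.96 and 5.8 CPM in WT-NCD, with an interaction of -7.54 (adjusted p = 0.0043). KO-HFD levels of Spp1 thus lay within the range of the 6 NCD libraries. Of the 17 pan-macrophage markers 1 was called on NCD, Csf1r, which was higher in KO-NCD (0.93, adjusted p = 0.033), and the list median was 0.71. Among all tested genes 5.27% were higher and 7.91% lower on NCD. The interaction was called for 11 of the 17, against 17.7% of all tested genes. Of the 15 lipid-associated macrophage genes it was called for 7, and 3 were lower on NCD, namely Plin2, Ctsd (-0.91, adjusted p = 0.035, with an interaction of -0.39, adjusted p = 0.47) and Acp5, an acid phosphatase chosen after its values were seen (-0.93, adjusted p = 0.033).

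Lipogenic and mitochondrial genes were called in opposite directions on the diets. On NCD, 10 of 19 fatty acid synthesis enzymes were lower in KO-NCD (median -1.39), as were 13 of 23 TCA cycle genes (median -0.49) and 19 of 25 oxidative phosphorylation subunits (median -0.58), and the interaction was called for 15, 21 and 22 of them. Fasn had 3959, 11207 and 7066 CPM in KO-NCD, against 16050.0, 23455 and 22256 CPM in WT-NCD (-1.47, adjusted p = 0.04), with an interaction of 4.85 (adjusted p = 0.0028). Its level in KO-HFD, 1769 to 2424 CPM, was thus above WT-HFD but below every NCD library. Acss2 had 80.2, 131 and 111 CPM in KO-NCD, against 715, 741 and 761 CPM in WT-NCD (-2.78, adjusted p = 0.00036). Syt12, a synaptotagmin of vesicle traffic, had 76.4, 88.6 and 104 CPM in KO-HFD, against 21, 15.2 and 12.1 CPM in WT-HFD (2.48 ± 0.24, SE, adjusted p = 0.0011). On NCD, Syt12 had 35.5, 55 and 59.5 CPM in KO-NCD, against 163, 154 and 149.6 CPM in WT-NCD (-1.64, adjusted p = 0.0043), and its interaction was 4.11 (adjusted p = 0.00046). Of the 22 branched-chain amino acid genes 0 were higher and 3 lower on NCD (median -0.29), against 5.27% and 7.91% of all tested genes.

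**Figure D4:**
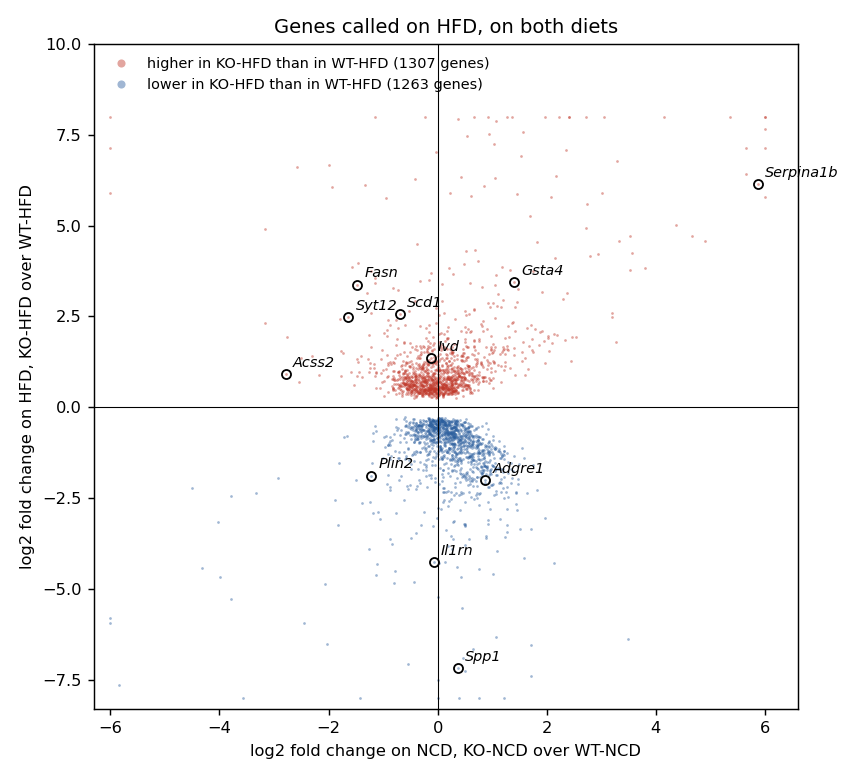
Log2 fold change on HFD (y axis, KO-HFD over WT-HFD) against that on NCD (x axis, KO-NCD over WT-NCD) of the 1307 genes higher (red) and 1263 genes lower (blue) on HFD, with 11 named genes circled and 30 genes beyond the limits of 6 (x) and 8 (y) drawn at the edge. Fasn, Syt12 and Acss2 lie in the upper left, Adgre1 in the lower right and Serpina1b in the upper right.

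A smaller set had the same call on both diets. Serpina1b had 58.6, 63.9 and 47 CPM in KO-NCD, against 1.16, 0.527 and 1.22 CPM in WT-NCD (5.87, adjusted p = 0.0035). Plin2 was lower on NCD as well (-1.22, adjusted p = 0.0052). Zfp949, a zinc finger gene (chr9:88548020-88571086) chosen after its values were seen, had 52.9, 50.8 and 47.5 CPM in KO-HFD, against 13.4, 13.7 and 12.9 CPM in WT-HFD (1.92 ± 0.11, SE, adjusted p = 6.5e-05). On NCD, Zfp949 had 72.3, 82.5 and 96.8 CPM in KO-NCD, against 14.1, 13.7 and 15.4 CPM in WT-NCD (2.54, adjusted p = 4.4e-06). Abhd1, an α/β-hydrolase family gene chosen in the same way, had 19.9, 20.3 and 16.7 CPM in KO-HFD, against 3.68, 4.02 and 4.21 CPM in WT-HFD, and was higher in KO-NCD too (2.26 on HFD and 1.71 on NCD). The RefSeq annotation used here lists Abhd1 as a transcribed pseudogene. For Zfp949 and Abhd1 the spread within each group was small next to the difference on either diet.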

How the data were processed

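The samples were 12 gWAT libraries, 3 in each of the KO-HFD, WT-HFD, KO-NCD and WT-NCD groups, made with a TruSeq stranded mRNA kit per the labels. The deposited values are raw counts per Entrez gene, which the authors made, per the submitters' processing notes and the methods, with bcl2fastq 2.20.0, Trimmomatic, HISAT2 2.1.0 on mm10 and StringTie 1.3.4d. The strand setting of the counting is not given in the sources used here, and 1 column, WT-HFD 4, has a number that no sample label carries, so it was used by its group alone. Of 19792 IDs 19745 matched a RefSeq symbol (GRCm38), and 47 did not.

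Of these, 16352 genes with 99.989% of the counts passed filterByExpr of edgeR 4.0.16 in R 4.3.3 (minimum count 10, minimum total 15). Counts were scaled by TMM, and edgeR's quasi-likelihood test was fitted with 4 group means on all 12 libraries (8 residual degrees of freedom, common dispersion 0.115) with Benjamini-Hochberg adjustment at 0.05. Standard errors are the log2 fold change over the square root of the F statistic. The script was tested on simulated data. No 2 libraries of a HFD group had counts alike within sampling noise. Precision is limited by 3 libraries per group rather than by the 47185990 to 73167755 counts per library.

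Named are the genes the study names, the 12 largest called changes in each direction with above-median expression and no overlap, up to 4 members of each list with the smallest p, and the 6 strongest interactions. The members and the 45 pathway and 20 cell type lists were chosen with earlier results of these data known. Of 846 list genes 824 were tested, 14 were too low and 8 were not found in the table. Some named genes are not reported here. Alternatives were DESeq2 size factors and its Wald test (1.42.0), no filter, the 6 HFD libraries alone, the replicate number as a block, WT-NCD left out, and each HFD library left out.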

Additional observations from a re-analysis of the deposited data

Results flagged for a closer look

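For 30 of the genes that the study names, that changed most or that had the strongest interactions, the genotype difference on HFD differed from that on NCD in the interaction test. Among all tested genes the interaction was called for 17.7%. Genes picked by their HFD change or by their interaction are among the 30, so their number is no result in itself. Values are the log2 difference on HFD minus that on NCD, with edgeR's quasi-likelihood adjusted p between 0.000226 and 0.0458, and no explanation was tested. Macrophage and inflammatory genes were more negative on HFD. Among them, Spp1 differed by -7.54, Il1b by -5.99, Atp6v0d2 by -4.38, Csf3r by -4.28, Ubd by -4.24 and Il1rn by -4.19. C5ar1 differed by -3.76, Gpnmb and Nlrp3 by -3.73 each, Adam8 by -3.53, Slc37a2 by -3.43, Ccl9 by -3.23 and Il10 by -3.09. Smaller differences were those of Adgre1 (-2.88), Itgax (-2.82), Ccl2 (-2.46), Ripk3 (-2.11), P2rx4 (-1.55) and P2rx7 (-1.54). On NCD the genotype difference of these genes ran from -0.78 (Gpnmb) to 1.45 (Csf3r), and of the 19 genes P2rx4 and P2rx7 were called there, both higher in KO-NCD.

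Lipogenic and other metabolic genes were more positive on HFD. Fasn differed by 4.85, Syt12 by 4.11, Acss2 by 3.70, Tlcd2, a membrane lipid protein gene, by 3.24, Gsta4 by 2.05 and Ldhb by 1.78. Ldhb and Gsta4 were higher in the Cx43-MKO libraries on both diets, whereas Fasn, Syt12, Acss2 and Tlcd2 were lower in KO-NCD than in WT-NCD. Tlcd2 had 11.3, 9.75 and 15.3 CPM in KO-HFD, against 7.38, 7.79 and 7.28 CPM in WT-HFD, a call that held only without KO-HFD 2. Lars2 differed by 5.45, with 966 CPM in KO-HFD 1 alone, and Eno1b by 11.16, with 0.0809, 0.0644 and 61.3 CPM in KO-NCD, against 54.4, 37.8 and 44 CPM in WT-NCD.

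The seminal vesicle genes Svs4 (30.17), Svs2 (27.83) and Svs5 (22.74) had the largest fitted differences, which depend on libraries at or near 0 and are no bounds. WT-NCD libraries held 4229.6 to 23911 CPM of Svs4, against at most 0.0258 CPM in KO-NCD.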

How the results depend on the processing

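DESeq2 size factors, no filter and leaving out WT-NCD kept the counts of higher and lower genes within 1.5 times, with 2537, 2262 and 1944 of the 2570 calls shared. DESeq2's Wald test called 2146 higher and 1938 lower genes (2560 shared), the 6 HFD libraries alone 579 and 734 (1231 shared), and no shared gene turned its direction under any alternative. Leaving out single HFD libraries gave 471 to 1483 higher and 415 to 1300 lower genes, with the fewest without WT-HFD 4 and KO-HFD 2, and 1243 to 1990 and 1266 to 1639 at the thresholds of the study. The interaction was called for 1961 to 3055 genes and the NCD difference for 1664 to 2395 under these omissions, and the Wald test gave 3730 for the NCD difference. With the replicate block, 304 genes were higher, 357 lower, 1356 differed between diets and 1209 on NCD. The numbers do not pair the HFD libraries, since 2 numbers are shared, deviations of same-numbered libraries correlated at -0.176 and -0.144, and WT-HFD 4 takes a block level of its own and so drops out of that fit. The cause of these changes was not tested. The omissions and the fit on the HFD libraries alone also hold fewer samples, and the omission of WT-HFD 1 gave more calls in both directions. Of the 200 genes named here, 0 lost their call under DESeq2 size factors, 5 under the Wald test, 1 without the filter, 24 without WT-NCD, 55 with the HFD libraries alone and 87 with the block. Of the 5, Scd3 had an adjusted p of 0.0521 in the Wald test. Gpnmb, Mmp12, Lars2 and Serpina1b got no adjusted p from that test, so they were not shown to fail it. The genes that gained a call were 1 under DESeq2 size factors (C1qb), 8 under the Wald test and 3 with the HFD libraries alone (Cxcl9, Cpt1a and Pycard). Seminal vesicle, liver and neutrophil RNA in some libraries, 3 libraries per group and the whole-tissue readout limit these results.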

Other observations

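Brown and beige fat genes showed no common direction. Of 13 tested, 2 were higher and 2 lower in KO-HFD than in WT-HFD (median log2 fold change 0.21). These calls were 15.4% of the list in each direction, against 7.99% higher and 7.72% lower among all tested genes. Ppargc1a, a coactivator of mitochondrial genes, had 4.93, 12.2 and 4.78 CPM in KO-HFD, against 2.96, 1.95 and 1 CPM in WT-HFD (1.89 ± 0.45, SE, adjusted p = 0.021, and up to 0.0774 without KO-HFD 2, WT-HFD 2 or WT-HFD 4, with a log2 fold change of 1.3 without KO-HFD 2). Cidea was higher (1.69, adjusted p = 0.041, kept only without WT-HFD 1), while Otop1 (-1.92, adjusted p = 0.012, and 0.0546 without KO-HFD 2) and Tmem26 (-2.25, adjusted p = 0.022, kept only without WT-HFD 1) were lower. Ucp1, the uncoupling protein of brown fat, did not pass the filter on low counts.

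Of 16 hypoxia response genes 1 was higher (6.25%) and 2 were lower (12.5%), against 7.99% and 7.72% of all tested genes. Ero1a, an oxidase of the endoplasmic reticulum, fell by 0.56 on the log2 scale (adjusted p = 0.012) with each library left out. Car9, a carbonic anhydrase induced by hypoxia, was lower too (-1.87, adjusted p = 0.026, and up to 0.093 without KO-HFD 1, KO-HFD 2, WT-HFD 1 or WT-HFD 4), and Ndrg1 was higher (0.48, adjusted p = 0.013, and 0.0598 without KO-HFD 2). Of 17 TGF-β and activin genes 2 were higher, Smad7 (0.59) and Tgfb3 (0.96), and 2 lower, Tgfb1 (-0.70) and Tgfbi (-1.52). None of these 4 was called without KO-HFD 2 or without WT-HFD 4. They made up 11.8% of the list in each direction, against 7.99% higher and 7.72% lower among all tested genes.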
